A study of Mus musculus with 12 samples.

Results

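Wild-type mouse embryos were compared with control mouse embryonic stem (ES) cells, using 4 libraries of the 12 in the series. The 2 embryo libraries (control embryo 1 and 2) are labelled embryo, strain C57BL/6, wild type. The 2 ES cell libraries (control ESC 1 and 2) are labelled ESC, strain 129Sv, wild type. These 4 were chosen by title. All 12 libraries carry the same label for their making, capture of RNA with a poly(A) tail and Smart-seq2, which copies whole transcripts into cDNA from very little starting material. The labels give no embryonic stage, sex, number of cells per library, ES cell line or culture medium, and do not say whether the libraries of a group came from separate embryos or cultures. The p-values below therefore measure only how far these libraries spread, and that spread may be technical. Embryo or ES cell and C57BL/6 or 129Sv are one and the same split of the libraries, so tissue and strain cannot be told apart. Libraries of Dcaf11 knockout embryos (KO embryo, n = 3, C57BL/6) and of Dcaf11 knockdown ES cells (KD ESC, n = 2, 129Sv) were used at the end as a separate set. One more knockout group, labelled arrest (KO arrest, n = 3, C57BL/6), enters 1 check of library make-up.

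A growing oocyte stores large amounts of messenger RNA and protein, and the early embryo lives on this store until it degrades it and starts its own transcription, in the mouse mainly at the two-cell stage. ES cells are lines derived from the inner cell mass of the blastocyst. They divide quickly, and a circuit of transcription factors around Pou5f1 (OCT4), Sox2 and Nanog keeps them pluripotent. A small share of ES cells at any time expresses two-cell genes such as Zscan4.

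Promoter sequences are shown for 3 genes that stand for the contrast: Zp3, a zona pellucida gene expressed in oocytes; Oog3, an abundant oocyte transcript; and Nanog, a pluripotency factor. Each is the 150 bases before the transcription start, 5′ to 3′ on the gene's strand, from RefSeq on build GRCm38.p6. Zp3 covers chr5:135979955-135980104 on the plus strand, Oog3 covers chr4:144162652-144162801 on the minus strand, and Nanog covers chr6:122707339-122707488 on the plus strand, the first of 2 promoters listed for that gene. Capitals mark matches to the E-box CANNTG (the core sequence of basic helix-loop-helix factors, which include oocyte and zygote regulators), to TATAAA, to the octamer letters TTTGCAT (a site of OCT4-type factors) and to ACAATG (a site of SOX-type factors).
Zp3: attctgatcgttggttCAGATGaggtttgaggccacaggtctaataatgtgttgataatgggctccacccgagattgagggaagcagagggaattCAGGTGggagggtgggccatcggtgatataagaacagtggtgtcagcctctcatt
Oog3: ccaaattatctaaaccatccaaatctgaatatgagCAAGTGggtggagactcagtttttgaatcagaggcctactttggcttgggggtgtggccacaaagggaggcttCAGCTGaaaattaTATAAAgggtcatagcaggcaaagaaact
Nanog: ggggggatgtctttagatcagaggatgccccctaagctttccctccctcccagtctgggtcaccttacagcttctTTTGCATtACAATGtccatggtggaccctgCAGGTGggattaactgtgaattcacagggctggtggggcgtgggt
The Zp3 and Oog3 windows each held 2 E-boxes, and the Nanog window held 1. Oog3 had a TATAAA match that began 29 bases before the start, and in Nanog the octamer letters began 75 bases before it, with 1 base between them and the SOX letters. Searched on both strands of the same 150 bases, 47.7% of the 32851 promoters of the table held an E-box and 7.57% held TATAAA. The octamer letters were in 2.36% of promoters and the SOX letters in 6.41%, and 1 promoter, that of Nanog, held both with 1 base between them. No motif overlapped another. A match describes these letters and is not evidence of a bound factor.

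The deposited values are FPKM, read densities scaled to gene length and library size, which are relative: a gene's value also falls when others take more of the library. They hold no counts, and the depth in reads is unknown. At 1 FPKM the deposited base coverage was 2.01 and 1.22 in the embryo libraries and 0.907 and 1.08 in the ES cell libraries. The embryo libraries listed 6573 and 10291 genes at 1 FPKM or more, and the ES cell libraries 12027 and 12061. Of 22619 gene symbols, 12638 had at least 1 FPKM in at least 2 of the 4 libraries and were tested. The ES cell libraries resembled each other more (r = 0.967 across these genes, which are not independent) than the embryo libraries did (r = 0.785), and the 4 pairs of an embryo with an ES cell library gave r = 0.246 to 0.298. In every tissue comparison here, fewer cells of a type and less RNA per cell cannot be told apart.

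The tissue labels were checked against defining markers. All 10 ES cell markers (among them Pou5f1, Sox2, Nanog, Utf1 and Tdgf1) were at 1 FPKM or more in both ES cell libraries, with sums of 3496 and 3429 FPKM. In the embryos 5 and 7 of them were, with sums of 671.5 and 733.7 FPKM, most of it Dppa5a. Of 10 oocyte markers, 8 and 9 were at that level in the embryo libraries, with Zp1 at 0 in both, and their sum was 36660 and 47760 FPKM against 1.25 and 2.23 FPKM in ES cells. Of 8 two-cell markers, 6 were found in each embryo library, and Tcstv1 and Tcstv3 were at 0 in all 4 libraries. The trophectoderm marker Cdx2 was at 0 in both embryo libraries, and the 6 trophectoderm markers summed to 0.453 and 21.7 FPKM there, against 15.4 and 18.7 FPKM in ES cells.

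One difference between the libraries goes against their common label. Genes whose RNA lacks a poly(A) tail, namely replication-dependent histones, small nucleolar and Cajal body RNAs, Rmrp, Rpph1 and Terc (185 genes, a group formed after the values were seen), held 0.115% and 0.462% of all FPKM in the control embryos and 26% in each control ES cell library. The same genes held 0.396% to 0.846% in the 6 Dcaf11 knockout embryo libraries (KO embryo, and 3 libraries of knockout embryos labelled as arrested, which hold the upper values from 0.71%) and 23.2% and 25.2% in the KD ESC libraries. The split thus follows tissue across the whole series, and a difference in how ES cell RNA was captured cannot be told apart from tissue or strain.

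**Figure D1:**
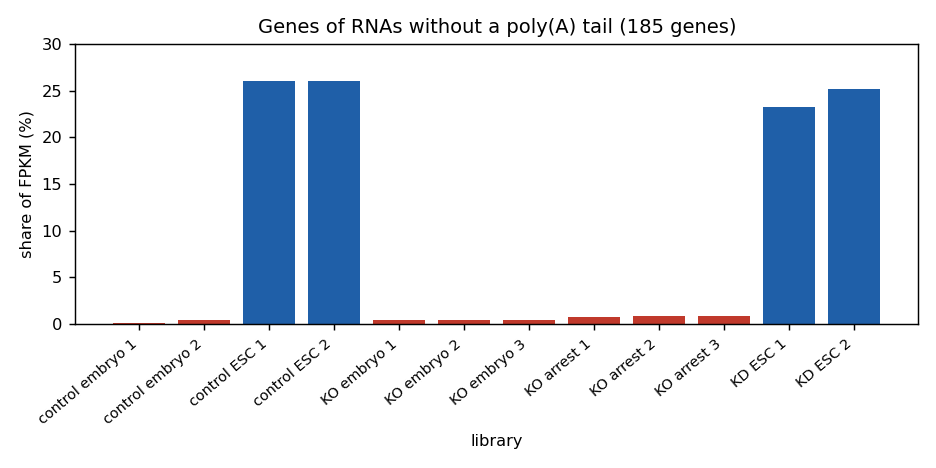
Share of all FPKM (y axis, %) held by 185 genes of RNAs without a poly(A) tail, 1 bar per library, ES cells in blue and embryos in red. Every ES cell bar is at 23.2% or above and every embryo bar is under 1%.

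The RNA components of RNase MRP and RNase P stand for this group. Rmrp (chr4:43505657-43505931, build mm9 as are all gene positions below) was at 4.19 and 12.5 FPKM in the embryos and at 24780 and 25032 FPKM in ES cells. Rpph1 (chr14:51427122-51427446) was at 0.509 and 17.1 FPKM in the embryos and at 22770 and 23743 FPKM in ES cells. For both genes the groups were far apart, with log2 differences (embryo minus ES cell, on log2(FPKM + 1), here and below) of -11.54 ± 0.55 (SE) and -12.12 ± 1.35. The replication-dependent histone genes, which package newly made DNA, summed to 242 and 1399 FPKM in the embryos and to 41830 and 41270 FPKM in ES cells. Of 66 tested, 58 were lower in embryos and none higher, and 12 of them are among the 15 genes of largest difference on the ES cell side. Of 101 small nucleolar and Cajal body RNA genes tested, 82 were lower in embryos and none higher. The calls reported here used all genes. Results without these 185 genes are given for all genes together and for some lists. Counts of other lists also changed without them and are not all given.

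More genes were lower than higher in embryos. By limma with a Benjamini-Hochberg adjusted p under 0.05, 6410 of 12638 genes (50.7%) were called: 1489 (11.8%) higher in embryos and 4921 (38.9%) lower. In 79.4% of all genes tested the groups did not overlap, with both embryo values above both ES cell values in 20.1% and below them in 59.3%. At 1 FPKM or more in both embryos and under 1 FPKM in both ES cell libraries were 711 genes, and 3114 genes showed the reverse. The median log2 difference of all genes was -1.27, and the direction of calls depended on scaling: 23.2% of calls were higher in embryos as deposited, 35.0% with median-of-ratios scaling, which moved the median by 0.74, and 46.4% with quantile normalization, which moved it by 1.14. With the 185 genes left out and the rest rescaled, 7123 genes were called, 18.3% of them higher. The median also moved to -0.46 with no filter, to -2.09 with a pseudocount of 0.1 FPKM and to -0.72 without either ES cell library. The median of a gene list below is therefore set beside that of all genes, -1.27, and no list median near it is read as a difference.

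**Figure D2:**
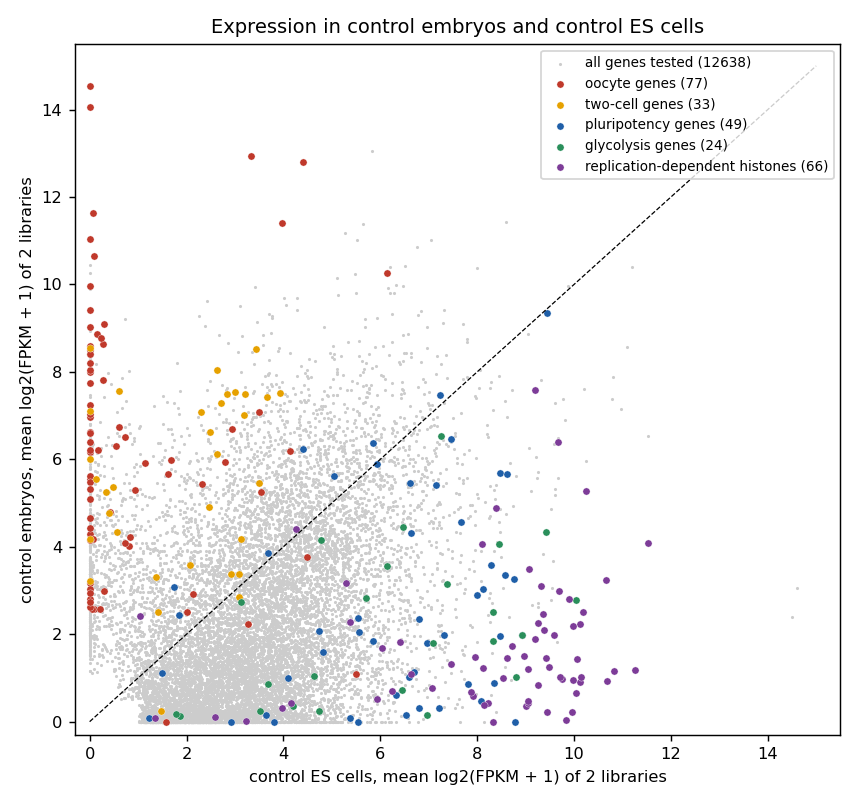
Mean log2(FPKM + 1) of the 2 control ES cell libraries (x axis) and of the 2 control embryo libraries (y axis), 1 point per gene for the 12638 genes tested, with the dashed line marking equal values. Oocyte and two-cell genes lie mostly above the line, many at 0 in ES cells, and pluripotency, glycolysis and histone genes lie mostly below it.

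The size of these counts rests on how the spread is shared. The median SD of a gene between the embryo libraries was 0.62 on the log2 scale, and between the ES cell libraries 0.10. Without control embryo 1, 9652 genes were called, and without control embryo 2, 10523, since the spread then came from the ES cells. Without control ESC 1 or control ESC 2, 723 and 719 genes were called, since the spread then came from the embryos.

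A few oocyte transcripts held a large share of the embryo libraries. Omt2a and Omt2b (oocyte maturation genes; chr9:78159779-78162604 and chr9:78175837-78177427) together held 10.6% and 11.7% of all FPKM. Omt2b was at 20739 and 27071 FPKM in the embryos and at 0 in both ES cell libraries. Omt2a was at 15257 and 18938 FPKM and likewise at 0 in ES cells. The copies are near-identical and may share reads. The 20 most abundant genes held 32.0% and 29.7% of FPKM in the embryos, and none of the 20 most abundant embryo genes was among the 20 most abundant in ES cells. Of the 20 embryo genes, 14 were called higher, against 11.8% of all genes tested. They were chosen by their embryo values, which favours such calls, so this count is not support.

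Dppa3 (Stella), which protects the maternal genome from demethylation, was at 4949 and 12398 FPKM in the embryos against 10.7 and 7.69 FPKM in ES cells. Its log2 difference was 9.60 ± 0.56 (adjusted p = 0.00475). Spin1, a spindle-associated reader of histone methylation that is abundant in oocytes, was at 4799 and 10529 FPKM against 29.6 and 13.7. Oog3 (chr4:143747459-143752554), whose promoter is printed above, was at 1709 and 5829 FPKM against 0 and 0.0852. In all 3 genes the lower embryo library was over 100 times the higher ES cell library. Cks2, a cyclin-dependent kinase partner needed for meiosis, was at 1813 and 2383 FPKM against 44.2 and 45.2, a ratio of means of 46.9.

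Of 42 other oocyte transcripts, 38 were tested and 33 of them were higher in embryos, with a median of 6.50. Members at or near 0 in ES cells passed the filter only through the embryos, so such counts describe the list and are not support for it. The same holds in the lists below for members at or near 0 in embryos, which passed only through ES cells. The Tcl1b cluster, related to the Tcl1 coactivator of AKT, showed the contrast within 1 family. Tcl1b1 was at 513 and 1916 FPKM in the embryos and 0 in ES cells, with a difference of 9.96 ± 0.75. Tcl1 itself was at 395 and 3831 FPKM in the embryos and 70.6 and 67.5 FPKM in ES cells and was not called. The 1 member called lower was Fbxw17, at 0 in both embryos and at 1.98 and 2.00 FPKM in ES cells. Bcl2l10, an oocyte member of the BCL2 family of apoptosis regulators, was at 296 and 902 FPKM against 0.

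Secreted oocyte factors and zona proteins, which signal to the follicle and coat the egg, were in part still present. Zp3 (chr5:136455975-136464494) was at 52.3 and 27.9 FPKM in the embryos and at 0.792 and 1.05 FPKM in ES cells, 4.36 ± 0.48 apart. The other coat genes were near 0, with Zp1 at 0 and Zp2 at 0 and 1.18 FPKM in the embryos. The growth factor genes Gdf9 and Bmp15 act together on granulosa cells. Gdf9 was at 38.5 and 156 FPKM against 0.456 and 0.460, and Bmp15 at 287 and 548 FPKM against 0 and 0.446. Of 11 members, 7 were tested and 6 were higher in embryos.

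Among oocyte transcription and chromatin genes, 12 of 13 tested (of 15) were higher in embryos and none lower. H1foo, the oocyte linker histone, was at 20.3 and 103 FPKM in the embryos and at 0 in both ES cell libraries. Obox5, an oocyte homeobox gene, was at 371 and 1254 FPKM against 0. Zfp57, which keeps imprints methylated, was at 96.3 and 186 FPKM against 10.5 and 10.1, so it was present in both tissues. Figla, the regulator of zona genes, was at 0 in all 4 libraries, and Nobox was at 4.60 and 11 FPKM in the embryos and 0 in ES cells.

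The subcortical maternal complex is an assembly under the egg membrane needed for cleavage. Its genes, listed with NLRP and Khdc1 genes, gave 13 of 19 tested members higher and 1 lower. The higher members were NLRP genes, Khdc1 genes and Zbed3. Khdc1b was at 1672 and 2660 FPKM in the embryos and 0 in ES cells, and Zbed3 was at 1870 and 3896 FPKM against 13.5 and 16.2. Several core members of the complex were not called. Nlrp5 was at 2.31 and 13.8 FPKM against 0, Tle6 at 7.06 and 3.07 against 3.17 and 2.94, and Ooep at 6.49 and 23.5 against 20.2 and 22.4. Khdc3 was the member called lower, at 0.286 and 2.54 FPKM in the embryos and 41.8 and 46.9 in ES cells (-4.41 ± 0.64).

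Genes of maternal mRNA storage and decay were mixed: 7 of 24 tested were higher and 4 lower, with a median of 0.41. Btg4, the adaptor that brings the CCR4-NOT deadenylase to maternal mRNA, was at 527 and 1698 FPKM in the embryos and 0 in ES cells. Its partners Cnot6l and Cnot7, both deadenylase subunits, were higher too. Cnot7 was at 168 and 318 FPKM against 23.2 and 20.4, and Cnot6l at 125 and 103 FPKM against 6.71 and 7.64. Cnot6 and Cnot8, the other catalytic subunits, were at 34.6 and 22.9 against 28.2 and 28.1 FPKM and at 19.8 and 53.8 against 30.7 and 29.3 FPKM and were not called. Zcchc11, a uridylating enzyme, was lower, at 4.13 and 3.41 FPKM against 14.2 and 14.5.

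Meiotic cell cycle genes gave 8 of 21 tested higher and 2 lower. Wee2, the oocyte kinase that holds meiotic arrest, was at 308 and 270 FPKM against 0 and 0.193, a difference of 8.05 ± 0.31. Slbp, which binds the stem-loop of histone mRNA, was at 175 and 598 FPKM against 31.2 and 30.8. Mos, the kinase of the egg's metaphase arrest, was at 18.5 and 1.12 FPKM against 0.452 and 0 and was not called.

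Genes of the two-cell stage were higher in embryos than in ES cells. Of 49 symbols, 44 are in the files, 33 were tested, 23 were higher and 1 (Tdpoz3) was lower. The 6 Zscan4 genes, which act on telomeres and mark a passing state of ES cells, summed to 374 and 990 FPKM in the embryos and to 54.2 and 44.0 FPKM in ES cells. The groups did not overlap, and ES cells were not at 0. By member, Zscan4a, Zscan4c, Zscan4d and Zscan4f were higher in embryos. Zscan4c was at 112 and 262 FPKM against 11.8 and 11.4 (3.77 ± 0.51, adjusted p = 0.00973). Zscan4e missed the threshold, at 27.3 and 67.5 FPKM against 9.80 and 10.7 (adjusted p = 0.0529). Zscan4b overlapped, at 1.26 and 47.3 FPKM against 6.35 and 6.86. These copies share reads, so their separate values are uncertain, and with 1 weight per group the call of Zscan4f was lost.

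Other two-cell genes varied in their ES cell level. Gm5662 was at 269 and 499 FPKM in the embryos and 8.70 and 11.1 FPKM in ES cells, and Gm2016 at 152 and 217 FPKM against 13.4 and 15.2. Pramel6 overlapped, at 1.95 and 36.1 FPKM against 7.92 and 6.99. A few were near 0 in ES cells. Zfp352 (chr4:89885511-89892378), a zinc finger gene of the two-cell embryo, was at 148 and 237 FPKM in the embryos and 0.868 and 0.235 FPKM in ES cells. The transcript E330034G19Rik was at 214 and 648 FPKM against 0. Dux, which drives the two-cell program, was at 0.202 and 1.70 FPKM in the embryos and 0.159 and 0.524 FPKM in ES cells, under the filter.

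**Figure D3:**
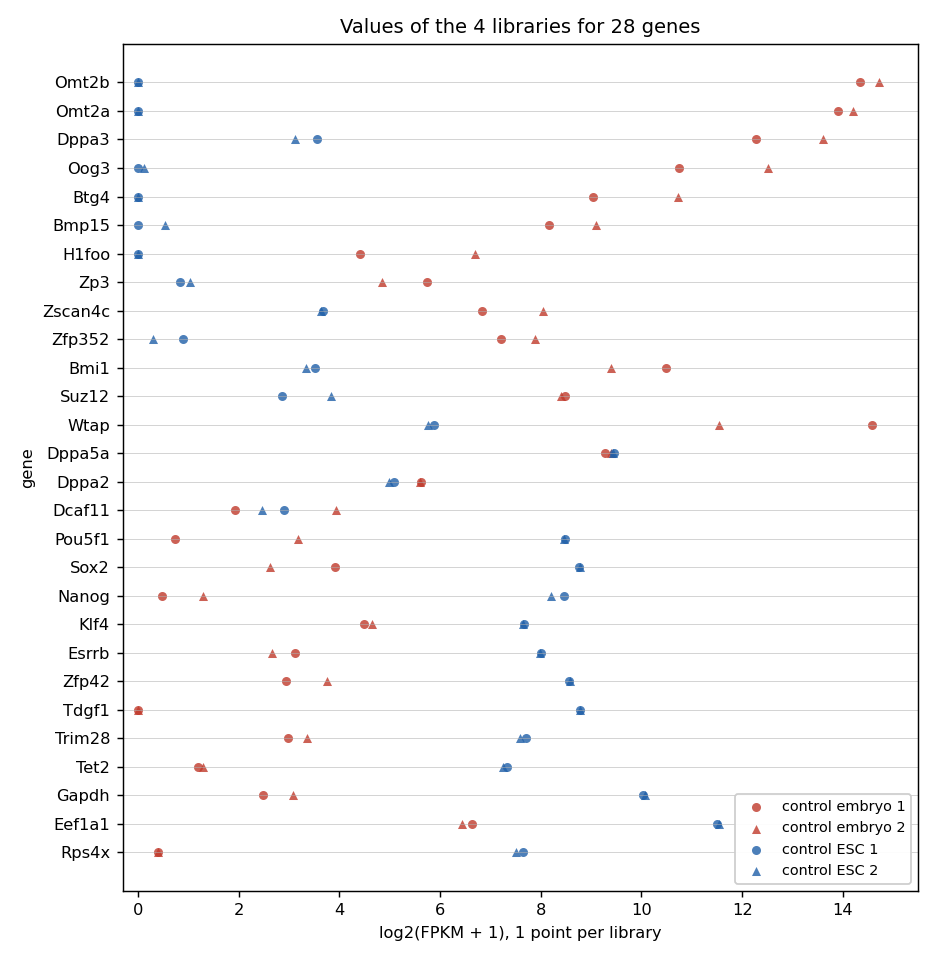
log2(FPKM + 1) (x axis) of 28 genes, 1 point per library, with control embryos in red and control ES cells in blue. Oocyte and two-cell genes and Bmi1, Suz12 and Wtap are to the right in red, pluripotency, Trim28, Tet2, glycolysis and translation genes to the right in blue, and Dppa5a, Dppa2 and Dcaf11 lie close together or overlap.

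Of 20 core pluripotency factors, all tested, 14 were lower in embryos and none higher, with a median of -4.90. Their sum was 441 and 363 FPKM in the embryos and 3697 and 3699 FPKM in ES cells. Pou5f1 (chr17:35642984-35647722) was at 0.663 and 8.10 FPKM in the embryos and 356 and 353 FPKM in ES cells. Nanog (chr6:122657586-122663796) was at 0.392 and 1.46 FPKM against 354 and 294. Its difference was -7.45 ± 0.42. Sox2 was at 14.1 and 5.19 FPKM against 432 and 437. Tfcp2l1, a factor of the naive state, was at 0.379 and 0.385 FPKM against 273 and 269. In each of these 4 genes the ES cell values lay close together and far above both embryo values.

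Some factors were present in both tissues. Klf4 was at 21.6 and 24.1 FPKM in the embryos against 202 and 201 in ES cells (-3.09 ± 0.24). Esrrb was at 7.67 and 5.31 FPKM against 255 and 253, and Zfp42 (REX1) at 6.67 and 12.5 FPKM against 377 and 382. Sall4, a zinc finger factor, and Rif1, a telomere and replication timing factor, were not called. Sall4 was at 95.3 and 80.2 FPKM in the embryos against 130 and 234, and Rif1 at 226 and 138 FPKM against 147 and 150. Myc, at 28.8 and 6.11 FPKM against 12.8 and 10.9, overlapped.

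Among further genes of pluripotent cells, 19 of 29 tested were lower in embryos and none higher. Tdgf1 (Cripto, the NODAL co-receptor; chr9:110842112-110848662) was at 0 in both embryos and at 437 and 440 FPKM in ES cells. The ligand Nodal was at 0 against 47.9 and 42.8 FPKM, and its inhibitor Lefty2 at 0 and 0.238 FPKM against 90.6 and 91.0. The developmental pluripotency associated genes differed from these. Dppa5a was at 620 and 676 FPKM in the embryos and 698 and 694 FPKM in ES cells, a difference of -0.10 ± 0.20. Dppa2 was at 48.2 and 47.5 FPKM against 33.1 and 30.8, and Dppa4 at 70.1 and 80.1 FPKM against 10.7 and 37.2, and neither was called.

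Signalling genes of ES cell culture pathways followed the transcriptome as a whole, with 2 of 27 tested higher and 10 lower, and a median of -2.02. Socs3, a feedback target of LIF signalling, was at 2.69 and 4.78 FPKM in the embryos and 66.0 and 64.8 FPKM in ES cells. Etv5, a target of FGF signalling, was at 11.4 and 8.72 FPKM against 162 and 157. Another FGF pathway gene, the inhibitor Spry4, went the other way, at 186 and 190 FPKM against 8.82 and 10.1 (4.18 ± 0.25).

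Polycomb genes split by subunit. Of 28 tested, 7 were higher in embryos and 13 lower, against 11.8% and 38.9% of all genes tested. The list median of -1.54 was near that of all genes, -1.27. The counts depended on scaling, with 9 higher and 9 lower by median-of-ratios and 7 higher and 9 lower by quantile normalization. The number higher was 3 with 1 weight per group and 4 with the genes of RNAs without a poly(A) tail left out. Bmi1 (chr2:18598645-18608256), a ring finger subunit of PRC1, was at 1425 and 669 FPKM in the embryos and 10.4 and 9.08 FPKM in ES cells. The PRC2 core subunit Suz12 was at 357 and 338 FPKM against 6.27 and 13.2, and the catalytic subunit Ezh2 at 45.3 and 40.5 FPKM against 6.92 and 15.7. The third core subunit, Eed, was at 40.4 and 30.1 FPKM against 26.6 and 24.4 and was not called. Histone-binding Rbbp4 was at 1.30 and 2.24 FPKM against 51.2 and 47.2, while its paralog Rbbp7 was at 153 and 185 FPKM against 85.1 and 85.7. The PRC2 accessory subunits Jarid2, Mtf2 and Aebp2 were lower in embryos, with Jarid2 at 1.42 and 4.68 FPKM against 50.1 and 48.8. Without either ES cell library Rbbp4 was no longer called.

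DNA methylation genes gave 2 of 20 tested higher and 7 lower, close to the shares of all genes. The higher members were Dppa3 and Zfp57. Tet2, which oxidizes methylcytosine, was at 1.29 and 1.46 FPKM in the embryos and 159 and 150 FPKM in ES cells (-6.04 ± 0.28), and Tet1 was at 13.6 and 4.32 FPKM against 193 and 191. Tet3, the oocyte member of the family, was at 8.07 and 19.7 FPKM against 2.96 and 3.49 and was not called. Dnmt1, the maintenance methyltransferase, was at 0.828 and 2.77 FPKM against 22.9 and 19.5, and its recruiter Uhrf1 at 2.19 and 14.4 FPKM against 184 and 190.

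Of 23 heterochromatin and KAP1 genes, all tested, 7 (30.4%) were lower in embryos and none higher. Both shares were below those of all genes tested, 38.9% lower and 11.8% higher. The list median of -1.38 was near that of all genes, -1.27. Trim28 (KAP1), the corepressor of KRAB zinc finger proteins, was at 6.94 and 9.27 FPKM against 209 and 190, a difference of -4.47 ± 0.28 (adjusted p = 0.00475). Cbx5 (HP1 alpha) was at 3.18 and 5.43 FPKM against 109 and 110. Its relative Cbx3 (HP1 gamma) was at 4467 and 426 FPKM against 91.7 and 88.2 and was not called, with the embryo libraries 10 times apart. Setdb1, the methyltransferase that KAP1 recruits, was at 16.3 and 3.93 FPKM against 19.9 and 12.4 and was not called.

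Linker and variant histones were more often lower than higher. Of 25 tested, 3 were higher (H1foo, Npm2 and H2afv) and 12 lower, with a median of -3.10, which became -0.22 once genes of RNAs without a tail were left out and -0.54 without either ES cell library. With the genes of RNAs without a tail left out, 3 were still higher and 5 lower, among them H1fx, a linker histone gene, at 0.0693 and 0.754 FPKM against 87.1 and 67.3. H3f3b, a gene of the replacement histone H3.3, was at 687 and 2578 FPKM in the embryos and 254 and 253 FPKM in ES cells and was not called. Hist1h1c, a somatic linker histone, was at 0.0955 and 0.514 FPKM against 518 and 514.

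Cell cycle genes were called in both directions. Of 38 mitosis genes 6 (15.8%) were higher and 6 (15.8%) lower, against 11.8% and 38.9% of all genes tested. Their median of -0.52 turned to 0.73 with median-of-ratios and 0.04 with quantile scaling. With the genes of RNAs without a poly(A) tail left out, 5 were higher and 13 lower. Spc25, a kinetochore subunit, was at 147 and 167 FPKM in the embryos and 2.57 and 1.54 FPKM in ES cells (5.71 ± 0.34). Mad2l1, a spindle checkpoint protein, was at 528 and 653 FPKM against 52.6 and 48.5. Among G1 and S phase regulators 5 of 28 tested (17.9%) were higher and 8 (28.6%) lower. Gmnn (geminin, the inhibitor of replication licensing) was at 300 and 259 FPKM against 16.8 and 23. The D-type cyclins, which drive entry into S phase, were all 3 lower, with Ccnd3 at 0.486 and 6.10 FPKM against 148 and 129.

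DNA replication genes gave 20 of 45 lower and 3 higher, near the shares of all genes. The 6 subunits of the MCM helicase, Mcm2 to Mcm7, were all lower in embryos. Mcm3 was at 0.328 and 1.71 FPKM against 86.7 and 77.8 (-5.45 ± 0.49), and Mcm5 at 1.32 and 1.79 FPKM against 49.1 and 47.1, calls that were lost without either ES cell library. Dbf4, the activator of the CDC7 kinase, was among the higher members, at 474 and 76.2 FPKM against 2.27 and 7.76.

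**Figure D4:**
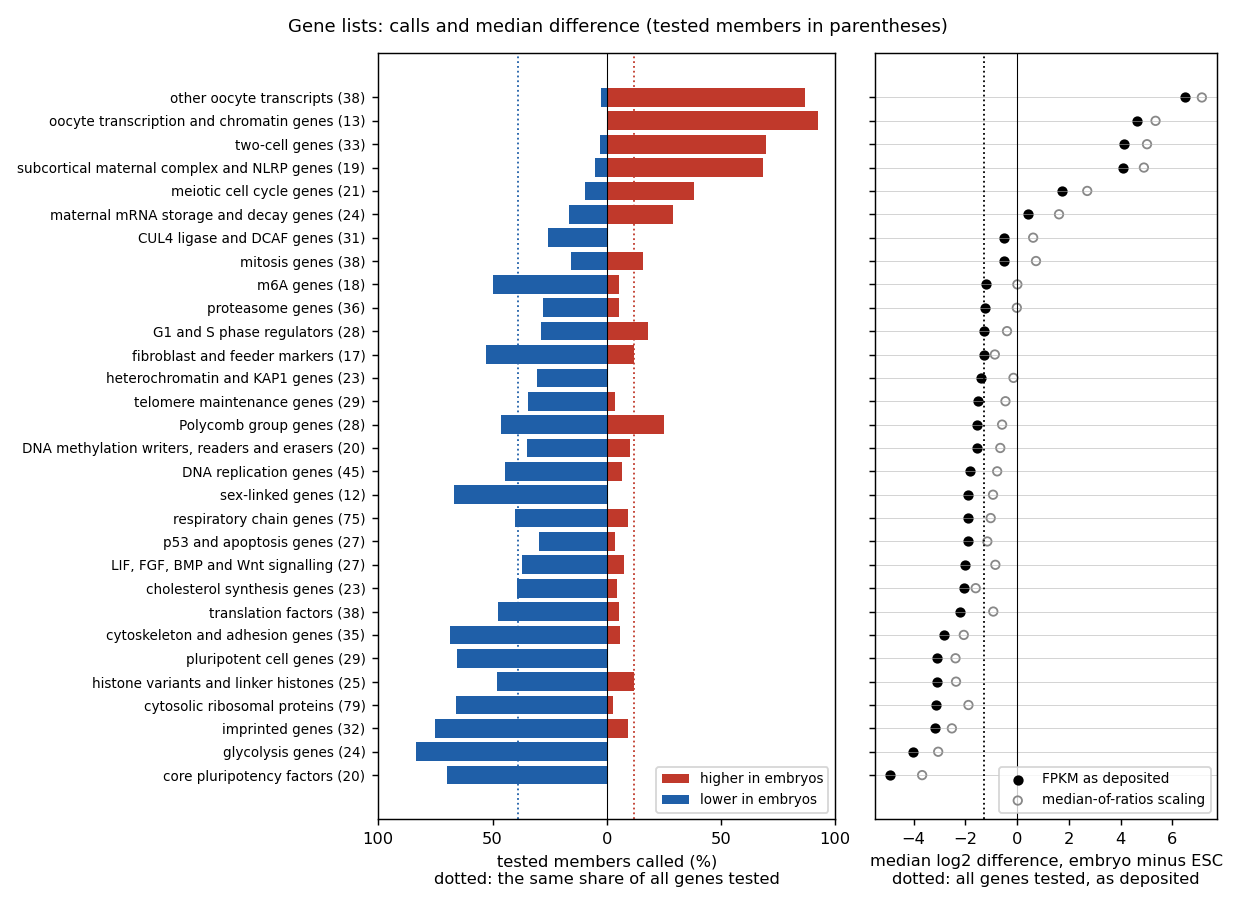
Left, share of tested members of each gene list called higher (red) or lower (blue) in control embryos (x axis, %), with dotted lines at the same shares of all genes tested; right, median log2 difference, as deposited (filled) and with median-of-ratios scaling (open), with a dotted line at the median of all genes. Oocyte and two-cell lists are at the top with medians above 4, and glycolysis and core pluripotency lists at the bottom with medians under -4. The open points of mitosis, CUL4 ligase and m6A genes lie above 0 and their filled points under it. Lists with under 75% of members tested are not drawn.

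Glycolysis genes were lower in embryos almost throughout. Of 24 genes, all tested, 20 were lower in embryos and none higher, with a median of -4.04. Gapdh (chr6:125111870-125115601), the glyceraldehyde phosphate dehydrogenase gene often used as a reference, was at 4.61 and 7.44 FPKM in the embryos and 1041 and 1069 FPKM in ES cells, 175 times as high in the means. Eno1 (enolase) was at 0.146 and 2.60 FPKM against 449 and 446, and the glucose transporter gene Slc2a3 at 6.02 and 1.23 FPKM against 497 and 478. Pkm (pyruvate kinase) was at 17.8 and 20.6 FPKM against 680 and 684. The members not called were Ldhb, Pdk1, Pdk3 and Pdha1. Ldhb, the lactate dehydrogenase subunit of oxidative tissues, was at 42.6 and 196 FPKM against 146 and 160. Pdk1, Pdk3 and Pdha1 act at the step from pyruvate into mitochondria.

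Ribosomal protein genes were mostly lower in control embryos. Of 79 cytosolic ribosomal protein genes, all tested, 52 were lower and 2 higher, with a median of -3.14, and their sum was 2794 and 3790 FPKM in the embryos against 17686 and 17247 FPKM in ES cells. Rps4x (chrX:99380282-99383710) was at 0.324 and 0.316 FPKM against 199 and 180. The higher members were Rps29, at 120 and 139 FPKM against 9.63 and 12.6, and Rpl30, at 6.37 and 31.2 FPKM against 0. Many of these genes have processed copies, which can take or share reads, so single values are uncertain. With median-of-ratios scaling 28 were lower and the median was -1.88. In the Dcaf11-depleted libraries 38 of 78 tested were lower and 15 higher, with a median of -1.29, and the sums were 13268, 9057 and 13474 FPKM in KO embryo against 17476 and 17255 FPKM in KD ESC.

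Of 38 translation factors 18 were lower and 2 higher (median -2.19), and in the depleted libraries 18 were lower and 9 higher (median -0.76). Eef1a1, the elongation factor that brings aminoacyl tRNA, was at 97.8 and 85.2 FPKM in the embryos and 2906 and 2984 FPKM in ES cells. The higher members were Eif4e, the cap-binding protein, at 145 and 299 FPKM against 57.4 and 53.2, and Eif5, at 199 and 187 FPKM against 85.8 and 86.8. Eif4e1b, the oocyte form of the cap-binding protein, was at 6.70 and 26.4 FPKM against 1.08 and 1.21 and was not called.

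Respiratory chain genes (30 of 75 tested lower, 7 higher, median -1.90) were near the shares of all genes, and proteasome genes (10 of 36 tested lower, 2 higher, median -1.25) were below them. These counts changed with the genes of RNAs without a poly(A) tail left out. Then 38 respiratory chain genes were lower and 5 higher, and 18 proteasome genes were lower and 1 higher. Over all genes, 5817 were then lower and 1306 higher. Within the chain, Ndufb6 of complex I was at 284 and 376 FPKM against 46.7 and 45.8, and Uqcrc1 of complex III at 0 and 0.281 FPKM against 27.3 and 24.2. Of 23 cholesterol synthesis genes tested, 9 (39.1%) were lower, near the 38.9% of all genes, and 1 (Sc5d) was higher. Cytoskeleton and adhesion genes had 24 of 35 tested lower and 2 higher, with a median of -2.81. Fn1 (fibronectin) was at 0.236 and 0.702 FPKM against 169 and 166. The cell adhesion genes Cdh1 and Epcam differed: Cdh1 (E-cadherin) was at 17.4 and 10.4 FPKM against 151 and 149, and Epcam at 116 and 53.1 FPKM against 7.84 and 5.48.

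Of 41 imprinted genes, which are expressed from 1 parental copy, 32 were tested. Of these, 24 (75.0%) were lower and 3 (9.38%) higher in embryos, against 38.9% and 11.8% of all genes tested. The list median was -3.16, against -1.27 for all genes. Members at or near 0 in embryos passed the filter only through ES cells, so these counts describe the list and are not support for it. Both maternally and paternally expressed genes were among the lower ones. The maternally expressed noncoding RNA genes H19 and Rian were at 0.0570 and 0.154 against 29.4 and 28 FPKM and at 0.0417 and 0.0685 against 91.8 and 95.3 FPKM. The paternally expressed genes Snrpn and Slc38a4 were at 0 in both embryos, against 6.97 and 6.36 FPKM and 45.5 and 44.3 FPKM. The higher members were Phlda2, at 244 and 273 FPKM against 0 and 2.13, Cdkn1c and Usp29. The 9 untested members were under the filter.

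Other gene groups fixed for the tissue were near or below the shares of all genes. Of 27 p53 and apoptosis genes tested, 8 were lower and 1 higher. Mdm4, an inhibitor of p53, was the higher one, at 422 and 970 FPKM against 78.3 and 71.4, and the p53 target Ccng1 was at 0.141 and 6.32 FPKM against 210 and 213. Of 29 telomere maintenance genes 10 were lower and 1 (Terf2ip) higher. Tert, the telomerase catalytic subunit, was at 0 in both embryos and at 6.71 and 5.27 FPKM in ES cells.

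Genes of N6-methyladenosine in RNA gave 9 of 18 lower and 1 higher, with a median of -1.21 (0.01 with median-of-ratios scaling). The higher one was Wtap (chr17:13159665-13185405), a subunit of the methyltransferase. It was at 24385 and 2960 FPKM in the embryos, where it was the most abundant gene of control embryo 1, and at 57.8 and 53.5 FPKM in ES cells (7.23 ± 1.15). The embryo libraries lay 8 times apart for this gene. The catalytic subunit Mettl3 was at 3.51 and 3.46 FPKM against 9.73 and 11.8, lower in embryos.

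Dcaf11, the gene depleted in other samples of the series and which recruits substrates to a CUL4 and DDB1 ubiquitin ligase (chr14:56178866-56188902), was low in both tissues. It was at 2.82 and 14.3 FPKM in the embryos and at 6.48 and 4.52 FPKM in ES cells, so the groups overlapped, with a difference of 0.25 ± 0.84 (adjusted p = 0.822) whose sign turned without control embryo 2. Of 31 genes of the ligase, its receptors and its regulators, 8 (25.8%) were lower and none higher, against 38.9% and 11.8% of all genes tested. The list median was -0.50, above the -1.27 of all genes, and was 0.62 with median-of-ratios scaling. The adaptor Ddb1 was at 23.2 and 12.2 FPKM in the embryos and 65.6 and 63.6 FPKM in ES cells. The scaffold Cul4b was at 27.4 and 74.3 FPKM against 59.9 and 54.7 and overlapped.

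Markers of other cells were found, some in both tissues and some in the embryos alone. Of 5 blood markers in the files, the sum was 63.9 and 129.6 FPKM in the embryos and 0 in ES cells, led by S100a9 of neutrophils at 38.1 and 108 FPKM, with Ptprc, the pan-leukocyte gene, at 0.170 and 0.241 FPKM. The longer blood list of 17 genes went both ways: 7 were tested, 5 were higher, and Cd68 (0 and 0.535 FPKM against 11 and 11.5) and Alas2 (0 against 4.36 and 3.42 FPKM) were lower. Of 6 cumulus markers, 1 was at 1 FPKM or more in each embryo library (Tnfaip6, at 17.1 and 12 FPKM), and Amh and Fshr were at 0 in both. Of 7 fibroblast markers, 4 and 7 were at 1 FPKM or more in the embryos and 5 in each ES cell library. They summed to 17.1 and 67.2 FPKM in the embryos and to 73.7 and 74.5 FPKM in ES cells, where Col1a1 was at 42.0 and 43.9 FPKM and Lum at 0. The fibroblast list median of -1.29 turned to 0.03 with quantile normalization. The part of these cells in the results above was not tested. The 5 primitive endoderm markers summed to 6.72 and 16.3 FPKM in the embryos, most of it Gata4, and to 2.75 and 1.59 FPKM in ES cells. The longer primitive endoderm list went mostly the other way, with 7 of 11 tested lower in embryos and 3 higher, and sums of 34.5 and 93.4 FPKM against 513 and 543 FPKM. Germ layer, trophectoderm and primitive endoderm lists had 11 of 20 members tested each, so their counts describe only those members.

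Genes of the sex chromosomes differed as well, and the labels give no sex. The Y-linked genes Eif2s3y, Ddx3y and Uty were at 0 in both embryo libraries, and in ES cells at 14.5 and 22.8, 12.9 and 13.1, and 7.45 and 6.98 FPKM. Xist, the RNA of X inactivation, was at 0.649 and 2.03 FPKM in the embryos and at 20 and 18.4 FPKM in the same ES cell libraries, and Tsix, its antisense partner, at 0.0346 and 1.69 FPKM against 21.9 and 27.4. Read strand is not stated, so Xist and Tsix reads cannot be told apart.

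The same contrast was then made in libraries that share none with the 4 above: KO embryo (n = 3) against KD ESC (n = 2), with Dcaf11 knocked out in the one and knocked down in the other. It called 7599 of 12724 genes (59.7%), 2440 (19.2%) higher and 5159 (40.5%) lower in embryos. Of 11865 genes tested in both sets, 5884 were called in the control set and 7196 in the depleted set, and 4505 were called in both with the same direction. That is 76.6% of the control calls and 62.6% of the depleted calls. A further 55 genes were called in both in opposite directions, 45 of them lower in control embryos and higher in KO embryos. Among listed genes these included Psma6, Psmd7, Uqcr11 and Atp5l, lower in control embryos, and Dazl, a germ cell RNA-binding protein. Dazl was at 42.5 and 74.4 FPKM in control embryos against 14.1 and 17.3 in control ES cells, but at 14.6, 30.4 and 7.68 FPKM in KO embryos against 67.3 and 64.3 in KD ESC. The set also differs from the control set in Dcaf11, and strain again follows tissue.

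**Figure D5:**
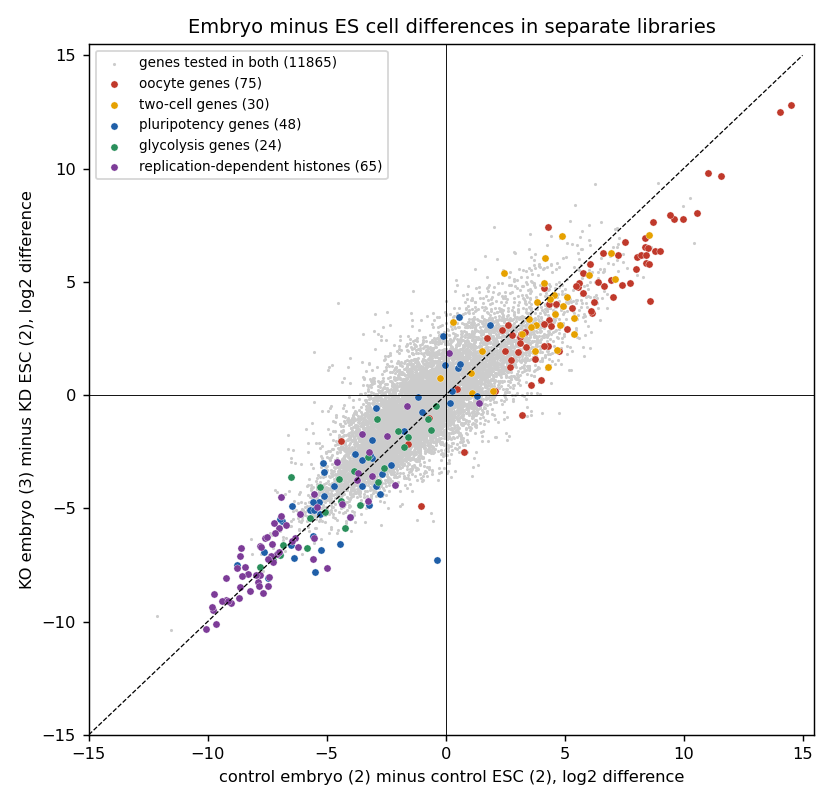
log2 difference of control embryo minus control ESC (x axis) and of KO embryo minus KD ESC (y axis), 1 point per gene tested in both sets (11865), with the dashed line marking equal differences. Oocyte genes lie in the upper right mostly under the line and histone, glycolysis and pluripotency genes mostly in the lower left, with a few pluripotency genes above 0 on the y axis.

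By list, the depleted set gave 18 of 20 core pluripotency factors lower (median -4.57), 21 of 24 glycolysis genes lower (median -3.77), 37 of 40 other oocyte transcripts higher (median 4.79) and 23 of 31 two-cell genes higher (median 3.38). Of the further genes of pluripotent cells, 28 were tested there, and 6 were higher and 19 lower. Nanog was at 0, 0.633 and 0 FPKM in KO embryos and at 314 and 327 in KD ESC, and Gapdh at 7.74, 4.40 and 4.89 FPKM against 958 and 1075. Omt2b was at 10152, 7079 and 10260 FPKM in KO embryos, against 0.555 and 0 FPKM in KD ESC. The lists that differed in sign of their median were respiratory chain genes, 0.18 with 28 of 76 higher and 20 lower, proteasome genes, 0.25 with 14 of 35 higher and 8 lower, mitosis genes at 0.29 (a list whose sign in the control set depends on scaling), and mRNA storage and decay genes at -0.22.

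The difference between both embryo minus ES cell differences was tested as an interaction. It was called for 315 of 13980 genes (2.25%), 0.615% higher and 1.64% lower in the control set than in the depleted set, and 2755 had an unadjusted p under 0.05. The developmental pluripotency genes Dppa2 and Dppa5a, singled out after their values were seen, were among the 315. Dppa2 was at 263, 205 and 276 FPKM in KO embryos and 20.8 and 22 FPKM in KD ESC, where control embryos had 48.2 and 47.5 FPKM (interaction -2.90 ± 0.33, adjusted p = 0.0176). Dppa5a was at 2986, 1678 and 2853 FPKM in KO embryos and 356 and 446 FPKM in KD ESC (interaction -2.71 ± 0.38, adjusted p = 0.0229).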

How the data were processed

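Each library was deposited as 1 table, with FPKM, TPM and coverage values per gene made by the authors on build mm9. The tools were STAR 0.6.0, StringTie and DESeq2, per the submitters' processing notes. Neither their settings nor an annotation is named there (not given in the sources used here). TPM as deposited by the authors served as an alternative scaling, and the deposited coverage only as a measure of depth. FPKM were summed per gene symbol (47 symbols at more than 1 locus), and rows without a symbol, 0.549% to 1.19% of FPKM, were dropped.

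Genes with at least 1 FPKM in at least 2 of the 4 libraries were tested by limma 3.58.1 (R 4.3.3) with a variance trend on log2(FPKM + 1), with 2 residual degrees of freedom and Benjamini-Hochberg adjustment over all genes tested. The pseudocount of 1 understates changes of low genes and sets the difference for genes at 0 in a group. On simulated data of 12638 genes the fit found 4, 24, 31 and 42 of 50 genes changed by 2, 4, 6 and 8 on the log2 scale. Of its 112 calls, 11 were false, and most of the smallest changes were missed. Far fewer genes were changed there than the 6410 called in the data, so the adjusted p threshold was harder to reach. The shares found and false therefore need not hold for the real calls. The rerun on KO embryo and KD ESC had 3 residual degrees of freedom.

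Gene lists were described by counts and medians without a set test. Members and lists were chosen with earlier results of these data known. Named genes were 21 fixed ones (the 6 Zscan4 genes among them), the 15 largest differences on each side with 1 predicted gene apart, the 4 members of smallest p of each list, and called genes among the 20 most abundant of a tissue; other genes were named after their values were seen. Alternatives were pseudocount, filters, median-of-ratios and quantile scaling, TPM values, weights, a minimum fold, all 12 libraries, the replicate number as a block, gene length, each library left out and, added after seeing the data, omission of genes of RNAs without a poly(A) tail. Lengths came from GENCODE on GRCm38 by symbol (99.2% of genes tested). The promoter table held 72.6% of the tested symbols, too few for a comparison of promoter composition between gene groups, which was not made. Tables were made with pandas 2.3.3 and numpy 2.4.6 in Python 3.11.15, and figures with matplotlib 3.10.9.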

Additional observations from a re-analysis of the deposited data

Results flagged for a closer look

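The difference between control embryo and control ESC was not the same as that between KO embryo and KD ESC for 11 of the 194 named genes. The test was an interaction term over 9 libraries (limma, adjusted p under 0.05). Over all genes it was called for 315 of 13980 (2.25%). The values here are the log2 difference of the control set minus that of the Dcaf11-depleted set. For the oocyte genes among these 11 the control set gave the larger difference. They were named by their difference or p in the control set, so that choice favours this direction. The interaction was 4.44 for D16Ertd519e, at 432 and 345 FPKM in control embryos and 12.6, 24.5 and 15.2 FPKM in KO embryos, and 3.72 for AA545190, at 879 and 2207 FPKM against 73.7, 169 and 92.2. The meiotic kinase gene Wee2 gave 2.77, at 308 and 270 FPKM in control embryos and 30.1, 46.6 and 38.8 FPKM in KO embryos. Kpna7, an oocyte importin, gave 2.39, at 11.7 and 9.13 FPKM against 1.64, 0.731 and 1.73.

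The other 7 genes had a negative interaction. Gps1, a COP9 signalosome subunit, had an interaction of -3.93, at 0.111 and 0.465 FPKM in control embryos, 22.2, 19.7 and 18.5 FPKM in KO embryos and 11.9 to 14.9 FPKM in the 4 ES cell libraries. Rbbp4 gave -3.49, at 20, 21.8 and 26.5 FPKM in KO embryos, and Mcm3 gave -3.35, at 13.0, 17.9 and 7.97 FPKM there. Rps20 gave -2.13 and the chaperone gene Hsp90ab1 gave -1.50. For Etv4 (-2.0) and Ptx3 (-1.49) the embryo libraries of both sets were under 0.25 FPKM, and the ES cells differed: Etv4 was at 6.90 and 7.88 FPKM in control ESC and at 0.897 and 0.947 FPKM in KD ESC, and Ptx3 at 4.39 and 4.56 FPKM and at 0.813 and 1.05 FPKM.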

How the results depend on the processing

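For all genes, control embryo against control ESC (1489 higher, 4921 lower), quantile normalization gave 2322 higher and 2684 lower, and a minimum of 5 FPKM gave 3230 lower. Leaving out 1 library gave 452 to 2441 higher and 265 to 8423 lower, the lone library of a group being assumed to vary like the other group. For KO embryo against KD ESC, a minimum of 5 FPKM gave 3422 lower, and leaving out 1 library gave 1494 to 2751 higher and 1139 to 5419 lower. With the replicate number as a block, 1306 genes were higher and 4647 lower, and 1 of 194 named genes (Crbn) lost its call; same-numbered libraries did not deviate together (r = -0.0119 over 12638 genes), so the numbers are not taken as pairs. Among named genes, 12 lost their call with median-of-ratios scaling and 14 with quantile normalization. Without control ESC 1 or control ESC 2, more named genes lost their calls than with either of these scalings. Others, such as Tdgf1, Bmp4 and Tert (0 FPKM in both control embryos), then failed the filter and were not tested. Signs turned for Dcaf11 (-0.12 without genes of RNAs lacking a poly(A) tail, -0.75 without control embryo 2, leave-one-out range to 1.25), for Zscan4b (-1.75 without control embryo 2, range to 2.67) and for Pdgfrb (0.37 with quantile normalization). List medians that changed sign were mRNA storage and decay (-0.11 without control embryo 1, range to 0.58), meiotic genes (-0.16 and -0.42 without control embryo 1 and 2, range to 1.93), mitosis (0.73 with median-of-ratios, 0.04 with quantile normalization), CUL4 and DCAF genes (0.62) and N6-methyladenosine genes (0.01) with median-of-ratios, fibroblast markers (0.03 with quantile normalization), cumulus markers (2.60 and 2.51 without control ESC 1 and 2, range from -2.45) and blood markers (-2.64 and -2.95 without control embryo 1 and 2, range to 3.72). Leaving out a library also changes which genes pass the filter: genes at 0 in ES cells are then no longer tested without either embryo. Likewise, genes under 1 FPKM in both embryos are no longer tested without either ES cell library. Among these are the cumulus and granulosa markers Inha, Ptx3, Ptgs2 and Star. The cause of the other shifts was not tested. With 2 libraries a group and no read counts, small differences of low genes cannot be resolved.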

Other observations

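The control embryo libraries differed from each other in particular genes. Of 10836 genes at 1 FPKM or more in either, 177 were higher in control embryo 1 by at least 3 on the log2(FPKM + 1) scale, and 862 were higher in control embryo 2. The most abundant on the side of control embryo 1 were Wtap, at 24385 FPKM against 2960, Cbx3, at 4467 against 426, Insig1, a regulator of sterol synthesis, at 3364 against 280, and Spry2, an inhibitor of growth factor signalling, at 3083 against 256. Hsf2, a heat shock transcription factor, was at 1000 FPKM against 61.9, and Ythdf2, a reader of N6-methyladenosine that acts in maternal mRNA decay, at 737 against 78.6. The 3 KO embryo libraries lay between these values for Wtap (4287, 8920 and 6105 FPKM), Insig1 (564, 1088 and 482) and Spry2 (611, 1329 and 666). They reached above them for Cbx3 (3153, 5238 and 3526) and Ythdf2 (448, 850 and 473), and below them for Hsf2 (47, 160 and 35.5). On the side of control embryo 2 were Tcl1, at 3831 FPKM against 395, and Oaz1, the antizyme of ornithine decarboxylase, at 581 against 15.2. These genes were chosen after their values were seen, with 1 library on each side, so there is no test.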
